A study of Mus musculus with 19 samples.

Results

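Proliferating macrophages of the injured tenotomy site were described as cells that carried transcripts of Csf1r, the receptor for macrophage colony-stimulating factor, together with transcripts of the cell division machinery. They were selected on measured values. A droplet was kept as a cell when it held at least 500 genes and at most 25% mitochondrial transcripts. A kept cell entered the Csf1r gate with at least 1 transcript of Csf1r and none of Pdgfra, a fibroblast receptor, or Cdh5, an endothelial cadherin. It was counted as proliferating with a transcript of at least 3 of the 5 genes Mki67, Top2a, Birc5, Cdk1 and Ccna2. Transcripts were counted by unique molecular identifiers (UMIs), in which copies made by PCR are collapsed. Of 39541 kept cells, 14611 were in the Csf1r gate, and 376 of those were proliferating. The other 14235 gated cells were used for comparison.

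The cells came from 19 droplet libraries of the Achilles tendon region of mice in a model of heterotopic ossification, in which a partial-thickness burn of the back is combined with transection of the tendon. Groups held 4 libraries each, except day 3 with 3, and were day 0, day 3, day 7, day 21 and mice given p7N3, a peptide that activates CD47, by intraperitoneal injection at 10 mg/kg on each of the 3 days before and the 3 days after injury. The p7N3 libraries were labelled day 7, except replicate 4, whose label gives no day. According to the study's methods, controls of the peptide received saline. The labels list the burn for day 0 as well, although that group served as the uninjured one. The series used C57 mice and LysmCre/Tgfb1fx/fx mice, in which Cre acts in myeloid cells and removes Tgfb1 there, but the labels give no genotype for a library, so that genotype cannot be told apart from any difference below. The study meant its replicates to cover differences among animals, but the labels tie no library to an animal, so p-values measure the spread between libraries, which may in part be technical.

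Tissue macrophages are replaced by monocytes that enter from blood and by division of macrophages already in place, and macrophage colony-stimulating factor acting through Csf1r drives both survival and division. A dividing cell first raises the genes that copy DNA (S phase), under E2F transcription factors, and then those that build the spindle and separate chromosomes (G2/M phase), which the DREAM and MuvB complexes hold down in resting cells through CHR elements in their promoters. Macrophage division is known to accompany resolution of inflammation in several tissues.

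The proliferating cells were unevenly spread over the libraries. Day 0 had 1, 0, 0 and 0 of them in replicates 1 to 4, day 3 had 66, 61 and 50, day 7 had 28, 17, 19 and 20, day 21 had 4, 2, 2 and 6, and p7N3 had 21, 37, 18 and 24. Sums over proliferating cells were therefore made only for the 11 libraries of day 3, day 7 and p7N3, each with at least 10 such cells, and levels are given as CPM, the UMIs of a gene per 1000000 UMIs of the sum. Depth, as the UMIs in all kept cells of a library, ran from 3019467 in day 0 replicate 2 to 39870492 in day 7 replicate 2, and no day 0 library exceeded 5383855. Proliferating cells were the richer in RNA, with a median of 18582.5 UMIs and 4047.5 genes against 6682 UMIs and 2036 genes in the other gated cells. A cell with more UMIs has more chances to show 3 of the 5 genes, so shares of proliferating cells were also computed with each cell thinned to 3000 UMIs. Cell barcodes were shared between libraries for 975 of 38554 distinct barcodes, at most 22 for any pair of libraries, and none of the 376 proliferating barcodes was shared. No doublets were removed.

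The macrophage genes of the label were present in the 376 cells as a whole but not evenly among them. Summed over the cells, Lyz2 (lysozyme) stood at 4272 CPM, C1qa and C1qb (complement C1q chains) at 1372 and 1786 CPM, Cd68 at 414 CPM and Adgre1, which encodes F4/80, at 122 CPM. In the other gated cells the same genes stood at 15026, 2430, 3261, 708 and 234 CPM, each higher. Fcgr1, an Fc receptor gene, stood at 87.8 against 201 CPM and Mertk, an efferocytosis receptor gene, at 10.4 against 21.0 CPM. The proliferating cells also carried 2172 CPM of Col1a1 and 1815 CPM of Col3a1, both fibrillar collagens, and 1007 CPM of Acta2, the smooth muscle actin. These RNAs were concentrated in a subset of the cells. In 82 of the 376 (21.8%), 7 collagen and matrix genes (Col1a1, Col1a2, Col3a1, Sparc, Col5a1, Col6a1 and Dcn) together held at least as many UMIs as 8 leukocyte genes (Tyrobp, Fcer1g, Lyz2, Cd68, Ctss, Laptm5, Ptprc and Coro1a), a split that was chosen after these values had been seen. The same was true of 633 of the 14235 other gated cells (4.45%). Those 82 cells held 7197 CPM of Col1a1 and 100 CPM of C1qa, whereas the remaining 294 held 328 CPM of Col1a1 and 1839 CPM of C1qa. Col1a1 belongs to the collagen sum, so its gap was set by the split, while C1qa is in neither sum.

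**Figure D1:**
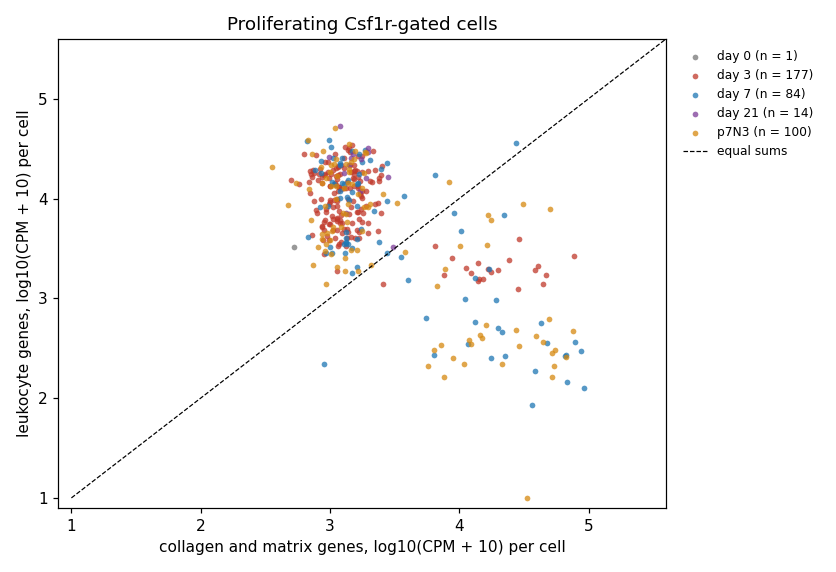
Each point is 1 of the 376 proliferating cells, coloured by group. The x axis gives the summed level of 7 collagen and matrix genes and the y axis that of 8 leukocyte genes, both as log10(CPM + 10). Points on or below the dashed line of equal sums are the 82 cells with collagen and matrix RNA at least as abundant as leukocyte RNA. They make up 11.9% of the day 3 cells, 33.3% of the day 7 cells and 33.0% of the p7N3 cells.

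The collagen-rich cells entered the gate mainly on a single Csf1r transcript. Of 87 proliferating cells with 1 Csf1r UMI, 60 were collagen-rich, compared with 4 of 195 cells with at least 5. They were 21 of 177 proliferating cells at day 3 (11.9%), 28 of 84 at day 7 (33.3%), 33 of 100 with p7N3 (33.0%) and 0 of 14 at day 21. By the fixed marker lists, in which stromal markers were set against the 8 macrophage markers, more cells stood apart, with stromal markers at or above macrophage markers in 111 of the 376, namely 20 of 177 at day 3, 40 of 84 at day 7, 50 of 100 with p7N3 and 1 of 14 at day 21. The macrophage label thus goes against the transcripts of the 82 collagen-rich cells, and by the fixed lists against those of 111. The leukocyte-rich cells therefore still include some with stromal markers at or above macrophage markers. Values for the leukocyte-rich cells are given below beside those for all 376. The comparison with stromal cells was not run for the leukocyte-rich ones. Leukocyte-rich proliferating cells numbered 58, 55 and 43 at day 3, 19, 11, 14 and 12 at day 7 and 11, 28, 11 and 17 with p7N3.

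Markers of other cell types were checked over the same 11 libraries. The 6 stromal markers summed to between 2185 and 18184 CPM with a median of 5969, with Col3a1 or Col1a1 the most abundant and Pdgfra at 0 by the rule. The 4 mural markers summed to 271 to 6729 CPM with Acta2 or Rgs5 the most abundant, and the 4 haemoglobin genes to 69.3 to 13339 CPM. Haemoglobin RNA was uneven between libraries of a group, at 373, 10348 and 6674 CPM at day 3 and 13339, 13054, 166 and 127 CPM at day 7. Neutrophil markers (S100a8, S100a9, Retnlg, Csf3r and Cxcr2) reached 67.6 to 2450 CPM. The summed markers had medians of 15.8 CPM for T and NK cells (highest library 86.5 CPM), 11.8 for B cells (highest 65.8), 21.2 for classical dendritic cells (highest 65.1), 15.6 for endothelial cells (highest 34.3), 2.10 for Schwann cells (highest 122) and 2.07 for mast cells (highest 9.28). Plasmacytoid dendritic markers had a median of 139 CPM and osteoclast markers one of 530 CPM, with Calcr at 0 throughout. The 8 macrophage markers summed to 2950 to 10763 CPM, with none at 0 in any library.

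The threshold of 3 genes cut through a gradient. Of the gated cells, 11742 showed none of the 5 genes, 2179 showed 1 and 314 showed 2, while 104 showed 3, 84 showed 4 and 188 showed all 5. The 104 cells just inside had a median of 1033 CPM for a list of 30 S phase genes and 1468 CPM for a list of 36 G2/M genes, neither of which holds a gene of the rule. The 314 cells just outside had medians of 371 and 712 CPM. Among the proliferating cells as a whole, Birc5 (survivin, of the chromosomal passenger complex) was the most abundant of the rule genes at 382 CPM, followed by Top2a (topoisomerase II alpha) at 240, Cdk1 (the mitotic kinase) at 186, Ccna2 (cyclin A2) at 150 and Mki67 (Ki-67) at 123 CPM. Csf1r itself stood at 308 CPM in proliferating and 535 CPM in other gated cells.

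The promoters of the cycle genes showed what the G2/M genes share beyond the rule. In RefSeq promoter sequences of GRCm38.p6, running from 250 bases before to 50 after the start, the CHR letters TTTGAA were found on either strand in 21 of the 31 G2/M genes that matched the table (67.7%), against 20.2% of all 27025 genes and 12.0% of the 25 matched S phase genes. The CCAAT letters were found in 74.2% of the G2/M genes, 64.0% of the S phase genes and 41.1% of all genes, and both CHR and CCAAT in 58.1%, 8.00% and 7.97%. The E2F letters TTGGCGC, whose first letters can overlap a CCAAT match on the other strand, were found in 24.0% of the S phase genes, 6.45% of the G2/M genes and 2.85% of all genes. The 4 stretches of 160 bases, from 165 to 6 bases before the start and written 5′ to 3′ on the gene's strand, show these layouts for 1 rule gene and 3 genes that return below, with every match to the 3 motifs on either strand in capitals, so that a match on the other strand shows as its reverse complement. They are those of Cdk1 (chr10:69352918-69353077, minus strand), Cdc20, the activator of the anaphase-promoting complex (chr4:118437349-118437508, minus strand), Ube2c, its ubiquitin-conjugating partner (chr2:164769764-164769923, plus strand), and Mcm6, a subunit of the replicative helicase (chr1:128359711-128359870, minus strand).
Cdk1: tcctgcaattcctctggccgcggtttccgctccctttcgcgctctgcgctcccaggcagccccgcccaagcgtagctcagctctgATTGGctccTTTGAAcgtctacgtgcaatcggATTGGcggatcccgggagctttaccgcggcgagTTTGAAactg
Cdc20: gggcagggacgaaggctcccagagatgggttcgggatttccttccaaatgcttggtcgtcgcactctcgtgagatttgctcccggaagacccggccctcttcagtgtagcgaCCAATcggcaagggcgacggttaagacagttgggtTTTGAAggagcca
Ube2c: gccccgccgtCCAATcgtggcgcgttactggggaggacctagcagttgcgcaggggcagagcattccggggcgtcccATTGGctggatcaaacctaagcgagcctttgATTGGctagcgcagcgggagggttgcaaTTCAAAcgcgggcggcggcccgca
Mcm6: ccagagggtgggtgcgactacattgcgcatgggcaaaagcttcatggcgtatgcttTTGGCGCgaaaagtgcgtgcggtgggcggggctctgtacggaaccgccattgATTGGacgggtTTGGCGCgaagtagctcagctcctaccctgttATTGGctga
Cdk1, Cdc20 and Ube2c carry CHR and CCAAT letters within these stretches, whereas Mcm6 carries CCAAT and E2F letters and no CHR letters. A match of letters is a description of the sequence and was not tested as a binding site.

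Beside the other gated cells, the leukocyte-rich proliferating cells differed far beyond the rule genes. The cells were selected on cycle transcripts, so the differences are given as a description, without a test, as the mean over 11 libraries of the difference in log2 CPM between proliferating and other leukocyte-rich cells (0.5 added to each count), with its SD. Of 7849 genes with at least 10 CPM, 18.8% were higher and 5.68% lower in all 11 libraries, and the median difference was 0.19. The sums held 135965 to 1310605 UMIs in proliferating and 4962749 to 14747173 UMIs in other cells. The added 0.5 thus weighs more in proliferating cells, which for genes with few UMIs makes a lower level in all 11 libraries harder to reach. In 29 of 30 S phase genes and 35 of 36 G2/M genes the level was higher in all 11, with median differences of 3.30 and 4.95. Pttg1 (securin) was the G2/M gene that was not, with a mean difference of -0.01.

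Of the genes of growth, the ribosome biogenesis genes followed the cycle genes. They were higher in all 11 libraries for 10 of 12, with a median difference of 1.45, and Dkc1 (dyskerin) led them with 2.27 ± 0.64. Npm1 (nucleophosmin) stood at 973 CPM in proliferating and 390 CPM in other cells on average. Myc was 42.5 CPM against 8.81 CPM, a difference of 2.21 ± 0.77. Of 13 genes in the list of G1 cyclins and CDK inhibitors, 4 were higher and 2 lower in all 11 libraries, with a median difference of 0.15. The G1 kinase gene Cdk4 was 231 CPM against 83.2 CPM. Cdkn2c, which encodes the CDK4 and CDK6 inhibitor p18, was also higher, with 113 CPM against 9.60 CPM, while the antiproliferative genes Btg1 and Btg2 had differences of -0.91 and -1.58.

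The lists of macrophage states had negative median differences, but only in the monocyte list were most genes lower in all 11 libraries. Of 11 resident macrophage genes 2 were lower throughout (median -1.09), and of 10 interferon-stimulated genes 4 were (median -1.51), where 5.68% of all genes were. Of 12 inflammatory monocyte genes, 7 were lower in all 11 libraries, among them Ly6c2 (11.6 against 139 CPM, difference -3.68) and Plac8 (-3.11). Lipid-handling and repair genes were lower in all libraries for 5 of 14, with Apoe (apolipoprotein E) at 5716 against 21440 CPM. The MHC class II genes were lower for 3 of 7, Cd74 (the invariant chain) being at 4309 against 11755 CPM. Of 13 inflammatory mediators 3 were lower throughout, among them Il1b at 228 against 1053 CPM and Cxcl3 with a difference of -3.05, and 0 of 13 hypoxia and glycolysis genes had the same direction in every library. Of 14 growth factor receptor and lineage genes, 0 were higher and 7 lower in all 11 libraries, with a median difference of -1.05. The myeloid lineage factor Spi1 (PU.1) was close to level, at 579 against 521 CPM, whereas Cebpb, another myeloid lineage factor, had a difference of -1.33. Of 8 genes of the pathways that the peptide and the Cre allele address, 1 was lower in all 11 libraries, where 5.68% of all genes were. In that list Tgfb1 was at 175 against 270 CPM, and Cd47 had a difference of -0.23. For all 376 cells 25.6% of 8403 genes were higher and 9.81% lower in all 11 libraries.

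**Figure D2:**
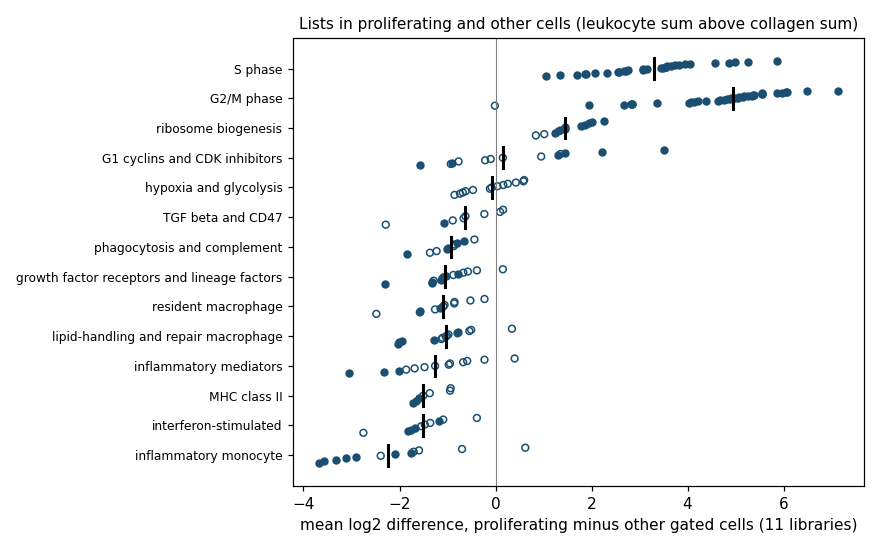
Each point is a gene of the list named on the axis, placed at its mean difference in log2 CPM between proliferating and other leukocyte-rich cells over 11 libraries; filled points had 1 direction in all 11 libraries, open points did not, and the bar is the list's median. S phase and G2/M genes sit highest (medians 3.30 and 4.95), ribosome biogenesis genes above 0 (median 1.45), and monocyte, MHC class II and interferon genes mostly below 0.

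The first question of the time course was when gated cells proliferated at the injury site. As sequenced, the proliferating share of gated cells was highest at day 3, but with cells thinned to 3000 UMIs the day 3 libraries overlapped with those of day 21. Unthinned it was 4.73%, 4.29% and 4.11% in the day 3 libraries, 2.06%, 1.40%, 1.74% and 1.61% at day 7, and 1.72%, 1.37%, 1.35% and 2.16% at day 21. At day 0 replicate 1 had 0.787% (1 of 127 cells, exact binomial 95% interval 0.0199 to 4.31%) and the other 3 had none of 63, 95 and 80 cells, which allows shares of up to 4.76%, 3.16% and 3.75% by a limit of 3 counts and of 5.69%, 3.81% and 4.51% by the upper end of the exact binomial interval. Every unthinned day 3 library lay above every library of days 0, 7 and 21. The mean fell from 4.38 ± 0.317% (SD, n = 3) at day 3 to 1.70 ± 0.276% (n = 4) at day 7, a difference of -2.67 percentage points with p = 0.0571 in a two-sided exact permutation test. That is the smallest p that 3 against 4 libraries allow, and it is 0.114 when adjusted over the 4 comparisons of shares (Benjamini-Hochberg). The rise from day 0 to day 3 was 4.18 points, with the same p values in the exact permutation test, and day 21 differed from day 7 by -0.0538 points (exact permutation p = 0.857).

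Depth differed between the groups. The median gated cell held 3810 UMIs at day 0, 9926 at day 3, 5675.5 at day 7, 8348 at day 21 and 5458 with p7N3. Thinning to 3000 UMIs left out shallower cells and the gate was applied anew to the thinned counts, so that a cell could also leave or enter it by losing a UMI of Csf1r, Pdgfra or Cdh5. The gate then held 241 cells in place of 365 at day 0, 3289 in place of 4035 at day 3, 3939 in place of 4906 at day 7, 659 in place of 805 at day 21 and 3686 in place of 4500 with p7N3. The shares of day 3 were then 1.29%, 0.912% and 1.10%, those of day 7 were 0.537%, 0.505%, 0.244% and 0.396%, and those of day 21 were 1.03%, 0%, 0.775% and 1.93% (2, 0, 1 and 4 cells), the last above every day 3 library. The day 3 libraries remained above the day 7 libraries, with a difference of -0.681 points (exact permutation p = 0.0571). Against day 0, where replicate 1 had 1.06% and the others 0%, the thinned difference was 0.836 points with p = 0.114 in the exact permutation test, and the groups overlapped, so a rise from day 0 was not detectable at this depth. Thinned to 2000 UMIs, day 3 and day 7 overlapped (-0.357 points, exact permutation p = 0.114), with 6, 9 and 3 proliferating cells left at day 3. Among leukocyte-rich gated cells the shares were 4.22%, 3.95% and 3.60% at day 3, 1.46%, 0.988%, 1.36% and 1.02% at day 7, and 2.14%, 1.68%, 1.53% and 2.78% at day 21. There the day 21 libraries all lay above the day 7 libraries, by 0.824 points (exact permutation p = 0.0286, the smallest that 4 against 4 allow, 0.0762 adjusted), and with thinning by 0.691 points with overlap (exact permutation p = 0.171).

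**Figure D3:**
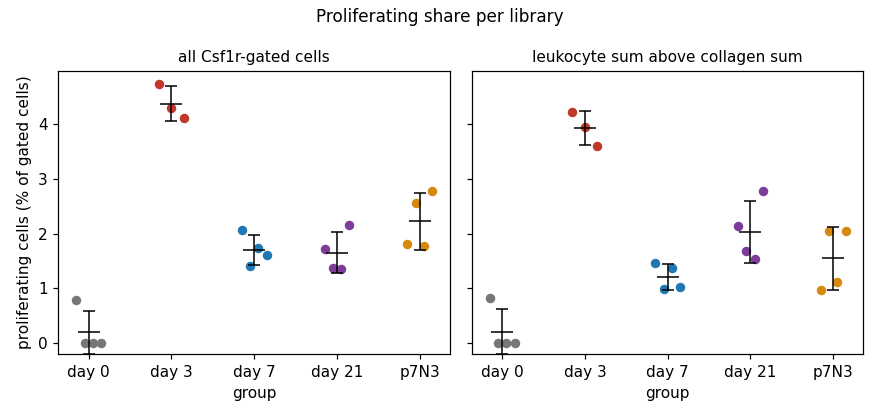
Points are libraries, with the percent of gated cells that were proliferating on the y axis and the group on the x axis, and bars are the mean and SD; the left panel holds all gated cells and the right panel those with the leukocyte sum above the collagen sum. The 3 day 3 libraries sit between 4.11% and 4.73% on the left, above every other library.

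Cycle genes that the rule did not use were measured in all gated cells of a library. Between day 0 and day 3, 14 of the 21 S phase and G2/M genes tested rose (7 of 11 S and 7 of 10 G2/M), where 25% of all genes rose, and 1 fell, where 27.5% of all genes fell (edgeR quasi-likelihood test, adjusted p under 0.05). Day 0 sums held only 275046 to 585779 UMIs, so the filter may favour genes that are high at day 3. With at least 10 UMIs in every library 7 cycle genes were tested. Of these 3 rose and 1 fell, where 30.9% of all genes rose and 32.6% fell. Cks1b, a partner of cyclin-dependent kinases, was 23.7, 17.2, 12.7 and 11.5 CPM at day 0 and 63.1, 54.9 and 54.0 CPM at day 3, all day 3 libraries being higher, with a log2 fold change of 1.72 ± 0.22 (SE, edgeR adjusted p = 0.000147). Mcm6 was 18.6, 10.3, 3.17 and 11.5 CPM at day 0 and 30.1, 29.8 and 28.8 CPM at day 3, again without overlap (log2 fold change 1.27, edgeR adjusted p = 0.00405). Its day 0 levels rest on few UMIs, so it may have passed the filter through the day 3 libraries. The gene that fell among the 21 was Pttg1. In leukocyte-rich gated cells 10 of 18 rose and 1 fell, where 24.9% of all genes rose and 27.8% fell. The same limit of the filter holds there, with 241328 to 565255 UMIs in the day 0 sums. Gated cells of day 0 were few and shallow, and leaving one out changed how many genes passed the filter. Without day 0 replicate 1, 2, 3 or 4 there were 37, 34, 35 or 32 calls in either direction among 64 cycle genes tested, where 32.2%, 32.0%, 32.9% or 31.5% of all genes were called. Without day 3 replicate 1, 2 or 3 there were 9 of 17, 9 of 16 or 10 of 16, where 44.6%, 49.4% or 47.8% of all genes were called.

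Between day 3 and day 7 most cycle genes fell. Of 66 tested, 52 fell (22 of 30 S phase and 30 of 36 G2/M genes) and 0 rose, where 18.4% of all genes fell and 19.1% rose by edgeR, and the median log2 fold changes were -0.61 for S phase and -0.79 for G2/M genes beside 0.01 for all genes. Cks2, another kinase partner, was 84.1, 77.2 and 97.5 CPM at day 3 and 49.2, 40.2, 44.5 and 48.7 CPM at day 7, a clear gap (log2 fold change -0.91 ± 0.10 SE, edgeR adjusted p = 0.000423). Mcm6 was 29.6, 29.2 and 28.3 CPM at day 3 and 17.7, 13.4, 15.5 and 14.7 CPM at day 7, without overlap (log2 fold change -0.92, edgeR adjusted p = 0.000368). The mitotic kinesin gene Kif2c had a log2 fold change of -1.47. Among leukocyte-rich gated cells 51 of 65 fell and 0 rose, where 16.3% of all genes fell and 14.7% rose.

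From day 7 to day 21 the outcome depended on which gated cells were counted. In all gated cells 12 of 59 cycle genes fell (2 S phase and 10 G2/M) and 0 rose, where 10.1% of all genes fell and 15.2% rose. Among them were Cks2, at 49.5, 41.6, 45.8 and 49.4 CPM at day 7 and 25.6, 29.0, 29.3 and 29.1 CPM at day 21 without overlap (log2 fold change -0.73, edgeR adjusted p = 0.00139), and Cdc20 with -1.29. Without day 7 replicate 1 the count of 12 was 6. In leukocyte-rich gated cells 4 of 47 rose and 2 fell, where 6.32% of all genes rose and 6.01% fell, and Cks2 was at -0.21 (edgeR adjusted p = 0.279). The summed G2/M list in those cells was 601 ± 35.5 CPM at day 7 and 592 ± 34.5 CPM at day 21 (SD, n = 4), beside 993 ± 51.7 CPM at day 3 (n = 3) and 649 ± 130 CPM at day 0 (n = 4).

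**Figure D4:**
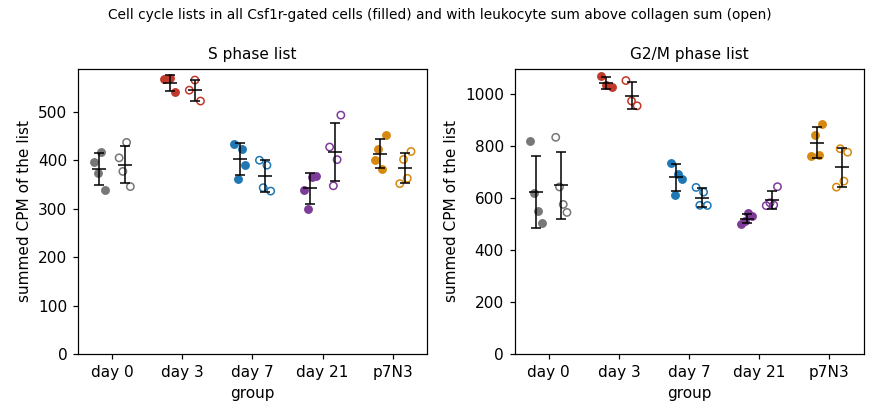
The summed level of the 30 S phase genes (left) and of the 36 G2/M genes (right) is shown in CPM for each library and group, with filled points for all gated cells, open points for those with the leukocyte sum above the collagen sum, and bars for the mean and SD. The G2/M sums of day 3 (1069, 1036 and 1025 CPM in all gated cells) lie above those of every other group.

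Division was set beside that of stromal cells, taken as cells with Pdgfra and without Csf1r or Cdh5, by the same 3 of 5 genes. Stromal cells proliferated more often at day 3, at 48.3%, 28.0% and 48.8% of 201 cells in 3 libraries, and still at 11.8 ± 4.32% at day 7 (n = 4) and 1.78 ± 2.31% at day 21 (n = 4), after 0 of 849 cells at day 0. Unthinned, the proliferating share of gated cells, collagen-rich ones included, minus that of stromal cells rose by 27.3 percentage points from day 3 to day 7 (exact permutation p = 0.0571, 0.0762 adjusted over 4 comparisons), with no overlap. It rose by a further 9.94 points from day 7 to day 21 (exact permutation p = 0.0286, 0.0762 adjusted), again with no overlap. With p7N3 the difference from day 7 was -0.331 points (exact permutation p = 0.943). The size of these differences changed with thinning, which also changed the cells compared. Stromal cells were chosen anew from the thinned counts, where a lost Csf1r UMI can bring a cell in, and numbered 317 in place of 201 at day 3, 1579 in place of 3300 at day 7 and 798 in place of 1536 at day 21. At 3000 UMIs the stromal share was 9.59 ± 0.585% at day 3, 4.15 ± 1.84% at day 7 and 0.661 ± 0.894% at day 21. The share of gated cells minus the stromal share then rose by 4.76 points from day 3 to day 7 (exact permutation p = 0.0571) and by 4.003 points from day 7 to day 21 (exact permutation p = 0.0286), still without overlap. Thinned to 2000 UMIs the rises were 0.831 points (exact permutation p = 0.4) and 1.63 points (exact permutation p = 0.0571), both with overlap.

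Which genes of the dividing cells changed between day 3 and day 7 was asked of the sums over proliferating cells. Of 6081 genes tested, 539 were called by edgeR (8.86%), 309 higher at day 7 (5.08%) and 230 lower (3.78%). The 8 largest rises among genes that reached 50 CPM without overlap included that of Lrrc15, which was 0.643, 0.683 and 0.825 CPM at day 3 and 26.7, 57.3, 112 and 94.4 CPM at day 7, and the others were those of Tnmd (tenomodulin), Col8a1, Col11a1, Thbs4, C1qtnf3, Fibin and Mest. The collagen-rich part of the proliferating cells grew from 11.9% to 33.3% between the same groups. The 6 stromal markers summed to 4067, 3541 and 2185 CPM at day 3 and to 4424, 16648, 18184 and 14520 CPM at day 7, all higher at day 7, with Pdgfra at 0 in each. In leukocyte-rich proliferating cells alone, 61 of 4263 genes were called (1.43%), 16 higher (0.375%) and 45 lower (1.06%), and of these 8 genes only C1qtnf3 could be tested there (edgeR adjusted p = 0.0504). Over all proliferating cells, leaving out day 3 replicate 1, 2 or 3 gave 264, 257 or 241 calls, and leaving out day 7 replicate 4 gave 353.

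Few cycle genes were called within the proliferating cells, which were selected on the cycle. Of 28 S phase genes 1 rose and of 34 G2/M genes 0 were called, where 8.86% of all genes were called, with medians of 0.10 and 0.18 beside -0.01 for all genes. The gene that rose was Rrm2, the small subunit of ribonucleotide reductase, at 112, 110 and 133 CPM at day 3 and 255, 254, 291 and 132 CPM at day 7, with replicate 4 of day 7 inside the day 3 range (log2 fold change 0.96, edgeR adjusted p = 0.0359, and 0.278 in leukocyte-rich cells). No cycle gene was called higher without day 3 replicate 1, 2 or 3 or day 7 replicate 2 or 3. The same held for cells with at least 4 of the 5 rule genes. The 12 ribosome biogenesis genes had 0 calls. Myc was 45.0, 41.7 and 41.3 CPM at day 3 and 17.2, 32.7, 33.3 and 28.3 CPM at day 7, lower in each day 7 library, but its log2 fold change of -0.70 missed the threshold (edgeR adjusted p = 0.0996).

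Among the 230 genes that fell between day 3 and day 7 were Chil3, Cd163, S100a8, S100a9 and Retnlg, all called in leukocyte-rich cells too. Chil3, Cd163 and Retnlg had 0, 1 and 2 UMIs over the day 7 group and passed the filter only through the day 3 libraries. The same limit holds in leukocyte-rich cells, so the calls of these genes are given as a description. Chil3, a chitinase-like protein of monocytes and alternatively activated macrophages, was 74.5, 75.2 and 75.1 CPM at day 3 and 0 in all 4 day 7 libraries, which is at least 35.7-fold lower against a floor of 3 counts over the day 7 group, with a lower 95% counting limit of 28.8 on the ratio (edgeR adjusted p = 0.000736). Reads of Chil3 may be shared with its close copy Chil4. Cd163, the haemoglobin scavenger receptor, was 76.5, 73.1 and 41.3 CPM at day 3, and a single UMI remained at day 7, against 276 at day 3 (ratio 93.2, 95% counting interval 16.6 to 3694). S100a8 and S100a9, which encode calprotectin, were lower in every day 7 library, S100a8 being 915, 793 and 1297 CPM at day 3 and 68.6, 32.7, 220 and 37.7 CPM at day 7 (log2 fold change -3.55 ± 0.512 SE, edgeR adjusted p = 0.00393). Retnlg (resistin-like gamma) had 533 UMIs at day 3 and 2 at day 7 (ratio 90.0, counting interval 24.8 to 745). The 5 neutrophil markers, which include S100a8, S100a9 and Retnlg, summed to 1815, 1629 and 2450 CPM at day 3 and 161, 67.6, 398 and 93.4 CPM at day 7, and 2, 2 and 1 of them were at 0 in day 7 replicates 2, 3 and 4. Their part in these falls was not tested.

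Of 11 inflammatory mediators tested, 3 fell and 0 rose, where 3.78% of all genes fell and 5.08% rose, and the list's median was -1.52. Ccl2, the main monocyte chemoattractant, was 803, 856 and 995 CPM at day 3 and 66.7, 372, 225 and 182 CPM at day 7 (log2 fold change -2.11 ± 0.405, edgeR adjusted p = 0.0123). Il1b was 318, 297 and 371 CPM at day 3 and 49.5, 172, 66.5 and 87.3 CPM at day 7 (-1.87, edgeR adjusted p = 0.00722). Neither overlapped, and both were called in leukocyte-rich cells (edgeR adjusted p = 0.0235 and 0.0142), whereas Tnf fell in all proliferating cells (-2.02, edgeR adjusted p = 0.0102) and missed the threshold in leukocyte-rich ones (-1.61, edgeR adjusted p = 0.12). Npl, a lyase of sialic acid breakdown, was 135, 156 and 104 CPM at day 3 and 19.1, 12.3, 37.4 and 16.5 CPM at day 7 (-2.68, edgeR adjusted p = 0.00124, and 0.0103 in leukocyte-rich cells).

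Of 10 resident macrophage genes tested, 3 fell, where 3.78% of all genes fell, and all 10 had a negative log2 fold change (median -1.50). Those that fell included the growth arrest ligand Gas6, at 199, 188 and 178 CPM at day 3 and 43.8, 98.1, 129 and 33.0 CPM at day 7 (-1.43, edgeR adjusted p = 0.0344), and Pf4, the platelet factor 4 chemokine, at -1.16 (edgeR adjusted p = 0.0138). In leukocyte-rich cells only Cd163 of this list was called, with the limit of the filter given above. Of 12 growth factor receptor and lineage genes, 3 fell, against the same 3.78% of all genes, namely Il4ra, Spi1 and Maf. Maf was 144, 145 and 123 CPM at day 3 and 41.9, 94.1, 104 and 49.5 CPM at day 7, without overlap (-1.02, edgeR adjusted p = 0.0481), but both Maf and Spi1 missed the threshold in leukocyte-rich cells (edgeR adjusted p = 0.317 and 0.732). Csf1r, a gene of the rule, was 350, 361 and 375 CPM at day 3 and 185, 249, 287 and 158 CPM at day 7.

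Of 14 lipid-handling and repair genes tested, 2 rose (Cd9 and Cd36) and 1 fell, where 5.08% of all genes rose and 3.78% fell, and the list's median was 0.20. Cd9, a tetraspanin, was 93.2, 120 and 109 CPM at day 3 and 360, 736, 511 and 356 CPM at day 7, all day 7 libraries being higher (2.18 ± 0.265, edgeR adjusted p = 0.00198, and 0.00367 in leukocyte-rich cells). Cd36, the fatty acid and oxidized lipoprotein receptor, was 45.6, 82.0 and 30.5 CPM at day 3 and 274, 135, 545 and 106 CPM at day 7, without overlap (2.29, edgeR adjusted p = 0.0305, and 0.0237 in leukocyte-rich cells). In leukocyte-rich cells 3 of the 14 rose and 0 fell, where 0.375% of all genes rose and 1.06% fell, Lgals3 (galectin 3) being added at 1.23 (edgeR adjusted p = 0.0419). Of the remaining lists, MHC class II had 0 calls in 6 genes with a median of 1.04, interferon-stimulated genes 0 in 5, TGF beta and CD47 genes 0 in 8, hypoxia and glycolysis 1 lower in 13 (Pgk1), G1 cyclins and inhibitors 1 lower in 13 (Btg1), phagocytosis and complement 1 lower in 9 (Msr1), and inflammatory monocyte genes 2 higher (Fn1 and Vcan) and 2 lower (Chil3 and Hp) in 9. In leukocyte-rich cells the hypoxia, G1 and phagocytosis lists had 0 calls in 9, 10 and 8 genes, and 0 of 6 inflammatory monocyte genes were higher and 2 lower.

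Whether proliferating cells changed as the other gated cells did between day 3 and day 7 was tested with a term for the difference between their responses, each library being its own block. It was called for 89 of 11529 genes by edgeR (0.772%), 30 with the higher response in proliferating cells (0.26%) and 59 with the lower (0.512%). In leukocyte-rich cells it was called for 45 of 10585 (0.425%), 18 higher (0.17%) and 27 lower (0.255%). Resident and complement genes were among the lower responses, with 4 of 12 resident genes and 3 of 11 phagocytosis and complement genes called, and 0 of either list called higher. The count of 89 became 35, 34 or 52 without day 3 replicate 1, 2 or 3 and 149 without day 7 replicate 3.

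The C1q genes, which lie side by side on chromosome 4 of GRCm38 (C1qb chr4:136880129-136886187, C1qc chr4:136889804-136893065 and C1qa chr4:136895917-136898803), differed in response between the compared cells. In proliferating cells alone their change was not called, Msr1 being the 1 call in 9 phagocytosis and complement genes. C1qa was 1558, 1863 and 1096 CPM at day 3 and 310, 1023, 1119 and 319 CPM at day 7 in proliferating cells. In the other gated cells it was 1900, 2347 and 1867 CPM at day 3 and 2529, 3556, 4118 and 2363 CPM at day 7. The proliferating cells were lower at day 7 in 3 of 4 libraries than in any day 3 library, whereas every day 7 library of the other cells was above all those of day 3, and the responses differed by -1.92 ± 0.269 (SE) on the log2 scale (edgeR adjusted p = 0.00483, and 0.00195 in leukocyte-rich cells). C1qc and C1qb differed by -1.85 and -1.72 (edgeR adjusted p = 0.00483 and 0.0206).

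Ccl8, a monocyte-attracting chemokine (chr11:82115185-82116799), showed a wider gap. In proliferating cells it was 1253, 1350 and 871 CPM at day 3 and 28.8, 440, 461 and 55.2 CPM at day 7, all lower. In the other cells it was 1459, 1522 and 994 CPM and then 2996, 2963, 4816 and 2201 CPM, all higher, and the responses differed by -4.05 ± 0.596 (edgeR adjusted p = 0.00637). Maf was lower at day 7 in proliferating cells and higher in the others, where it went from 149, 179 and 150 CPM to 240, 215, 278 and 226 CPM, a difference of -1.73 ± 0.251 (edgeR adjusted p = 0.00595). Gas6 and Sepp1 (selenoprotein P, listed as Selenop in newer annotation) differed by -1.93 and -1.80, and Cd163 by -5.02 on a single UMI in the day 7 proliferating cells.

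The osteoclast-associated genes Ctsk (cathepsin K) and Acp5 (tartrate-resistant acid phosphatase) differed through the other cells. Ctsk in the other gated cells was 42.4, 59.8 and 35.1 CPM at day 3 and 347, 321, 468 and 487 CPM at day 7, while proliferating cells had 161, 145 and 177 CPM and then 255, 123, 131 and 329 CPM, so that the groups overlapped. The responses differed by -2.80 for Ctsk and -2.49 for Acp5 (edgeR adjusted p = 0.00137 and 0.00155, and 0.00403 and 0.000582 in leukocyte-rich cells). Mmp9 (gelatinase B) was 202, 262 and 191 CPM in proliferating cells at day 3 and 38.9, 0, 25.4 and 149 CPM at day 7, all lower, and differed by -3.06 (edgeR adjusted p = 0.00595). Apoe, Fabp5 and Trem2, of lipid handling, differed by -1.34, -1.16 and -0.97 in all cells, but in leukocyte-rich cells their edgeR adjusted p were 0.102, 0.0768 and 0.42.

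In the opposite direction, Lsp1, an actin-binding leukocyte protein, was 103, 86.5 and 66.4 CPM at day 3 and 288, 236, 262 and 229 CPM at day 7 in proliferating cells, all higher. In the other cells it was 386, 346 and 344 CPM and then 353, 367, 337 and 273 CPM, with overlap, and the responses differed by 1.70 ± 0.170 (edgeR adjusted p = 0.000557, and 0.00195 in leukocyte-rich cells). Tmsb10 (thymosin beta 10, which binds actin) fell in the other cells, from 3554, 2768 and 3244 CPM to 1976, 1897, 1660 and 2090 CPM, and stood at 2283, 1666 and 2014 CPM and then 2425, 2479, 2471 and 2756 CPM in proliferating cells (difference 1.10, edgeR adjusted p = 0.000557). Cycle genes were among the calls too, but the cells were selected on such genes and nothing is read from them here.

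**Figure D5:**
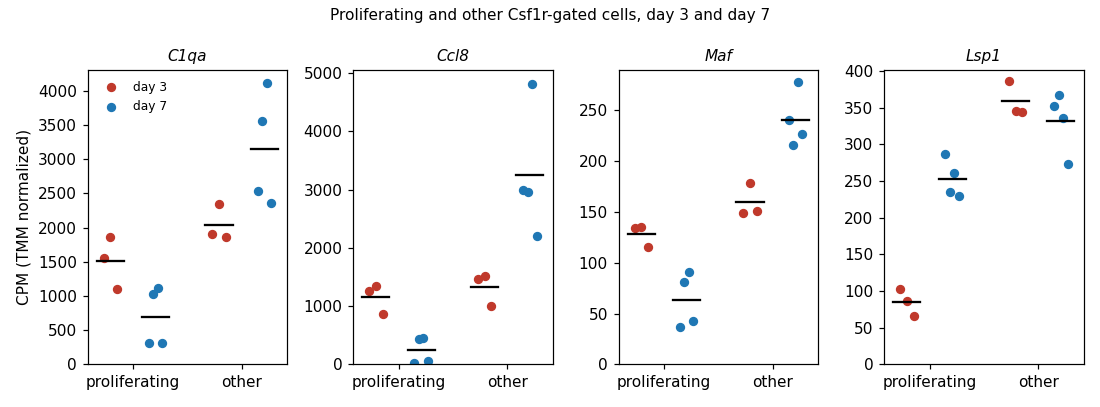
Levels of C1qa, Ccl8, Maf and Lsp1 in CPM are shown for each day 3 and day 7 library, in proliferating and in other gated cells. A short horizontal bar marks each mean. For C1qa, Ccl8 and Maf the day 7 mean is below that of day 3 in proliferating cells and above it in the others. For Lsp1 it is above that of day 3 in proliferating cells and nearly level with it in the others.

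The last question was whether p7N3 altered the proliferation of gated cells at day 7, the comparison sharing its day 7 libraries with those above. The share of proliferating cells was 1.80%, 2.56%, 1.76% and 2.77% with p7N3, within or above the range of the day 7 libraries, and the difference of 0.521 percentage points was within the spread (exact permutation p = 0.143, 0.19 adjusted). At a depth of 3000 UMIs the p7N3 libraries stood at 0.732%, 1.06%, 0.702% and 1.35%, all above day 7, by 0.541 points (exact permutation p = 0.0286, 0.114 adjusted over the 4 comparisons), but at 2000 UMIs the groups overlapped (0.143 points, exact permutation p = 0.371). In leukocyte-rich cells the unthinned difference was 0.338 points with overlap (exact permutation p = 0.343), and thinned it was 0.350 points (exact permutation p = 0.0571). Of 65 cycle genes in all gated cells 0 were called, as was 0.0% of all 11891 genes by edgeR, with 1139 genes at an unadjusted p under 0.05, while DESeq2 called 24 genes, 1 of them a cycle gene, and edgeR with the replicate number as a block called 12, none of them a cycle gene. In leukocyte-rich gated cells 0 of 64 cycle genes were called, and 867 genes had an unadjusted p under 0.05. Of 35 G2/M genes in all gated cells 33 had a positive log2 fold change, with a median of 0.39 beside -0.00 for all genes and of 0.36 in leukocyte-rich cells. Cdc20 was 9.13, 6.91, 6.02 and 7.58 CPM at day 7 and 13.6, 13.5, 12.7 and 18.2 CPM with p7N3, without overlap (0.94 ± 0.16 SE, edgeR adjusted p = 0.237).

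The balance of S phase and G2/M genes within the proliferating cells is given as a description without a test, since the rule selected cells on genes of the cycle. G2/M genes held 63.4%, 70.5%, 64.7% and 71.7% of the UMIs of both cycle lists at day 7 and 73.6%, 76.3%, 77.2% and 73.5% with p7N3, a difference of 7.57 percentage points, and the median proliferating cell held 16213.5 and 13306.5 UMIs. In leukocyte-rich cells the groups overlapped, at 68.1 ± 9.22% and 76.2 ± 1.84%. Day 3 was 66.3 ± 0.54% (n = 3). Cdc20 and Ube2c, whose promoters are shown above, were higher in each p7N3 library, Cdc20 at 110, 144, 89.1 and 122 CPM at day 7 and 234, 197, 187 and 241 CPM with p7N3, but with edgeR adjusted p of 0.796 and 0.956.

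Of 4731 genes tested in the proliferating cells, 1 was called between p7N3 and day 7 by edgeR (0.0211%), and 220 had an unadjusted p under 0.05. It was Lyz1, a lysozyme gene (chr10:117287797-117292868) next to Lyz2 (chr10:117277331-117282321), at 15.7, 16.4, 17.0 and 12.2 CPM at day 7 and 57.9, 117, 79.8 and 78.4 CPM with p7N3 (2.45 ± 0.297, edgeR adjusted p = 0.0272). In leukocyte-rich cells it was the single call in 2511 genes (0.0398%). In all proliferating cells the call was lost without any of 7 of the 8 libraries, p7N3 replicate 1 being the exception, and among cells with at least 4 of the 5 rule genes Lyz1 did not pass the filter and could not be tested. In the other gated cells Lyz1 was 156, 226, 362 and 212 CPM at day 7 and 117, 178, 230 and 174 CPM with p7N3, with overlap, and the difference between the responses, 2.83 ± 0.314 (edgeR adjusted p = 0.00375), was the single call in 11114 genes (0.009%), or 1 of 4 among 10238 in leukocyte-rich cells (0.0391%). Lyz1 and Lyz2 are near-identical copies, so the assignment of reads between them is uncertain. Lyz2 was at -0.58 (edgeR adjusted p = 0.967). By list, 0 of 32 G2/M genes, 0 of 25 S phase genes, 0 of 12 ribosome biogenesis genes and 0 of 13 lipid-handling genes were called, with medians of 0.38, -0.25, 0.29 and -0.74 beside -0.01 for all genes, and all 12 ribosome biogenesis genes had a positive sign. Of 7 TGF beta and CD47 genes 0 were called, Sirpa, the CD47 receptor gene, standing at 118, 189, 216 and 125 CPM at day 7 and 108, 98.7, 117 and 61.6 CPM with p7N3 (-0.72, edgeR adjusted p = 0.956).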

How the data were processed

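Mouse cells of the tenotomy site were sequenced as 19 droplet (10x) libraries in 5 groups. The authors aligned reads to mm10 with Cell Ranger and deposited raw UMI counts for 27998 genes per barcode, without normalization; the labels name GRCh38 as a build as well, which does not apply to mouse genes, and day 0 replicate 1 was deposited with its empty droplets, which the gene minimum removed. The gene and mitochondrial limits follow the study's methods, the UMI depths for thinning were chosen here, and the proliferating cells were those given in the report. The members and lists were chosen with earlier results of these data known.

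UMI counts were summed per library over proliferating cells, other gated cells or all gated cells, with at least 10 cells per sum, so that day 0 and day 21 gave no sums of proliferating cells. Tests across genes used the quasi-likelihood pipeline of edgeR 4.0.16 with TMM scaling, filterByExpr and Benjamini-Hochberg adjustment at a threshold of 0.05 (limma 3.58.1, R 4.3.3). Printed CPM of a comparison are TMM-scaled. The 8 genes of the rule were left out of call counts. A difference in response was a cell type by group term with libraries as blocks. Shares were compared with two-sided exact permutation tests over libraries. DESeq2 1.42.0, RLE factors, other filters, a single fit of all groups, the replicate number as a block, other rule limits, thinning to 2000 or 3000 UMIs and each library left out were alternatives, and the leukocyte-rich cells were an alternative added after the data had been seen. The fits were tested on simulated data. Intervals and floors cover counting error only. Figures were drawn with matplotlib 3.10.9, permutations run with scipy 1.17.1 and tables handled with pandas 2.3.3 and numpy 2.4.6 (Python 3.11.15). Gene positions are from GENCODE vM21, and Itgam and Trbc2, of the lists, had no row in the tables.

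Genes were named by a rule. It took up to 8 genes per direction with the largest fold change that passed the threshold, did not overlap and reached 50 CPM, up to 4 genes of each list with the smallest adjusted p and its most abundant one, the rule genes and label markers, and, as a description, the 4 genes of each list that differed most between proliferating and other cells. Genes named as all the calls of a list, Pttg1, Csf1r among the calls and Sirpa were chosen after their values had been seen where they fell outside it. Values of some single genes that the rule took are not reported here.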

Additional observations from a re-analysis of the deposited data

Results flagged for a closer look

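Values that stood apart within a group of libraries were looked for in 53 groups, and 6 were found, where chance gives about 1 in 20. The share of proliferating cells in day 0 replicate 1 was 0.787% of all gated and 0.82% of leukocyte-rich gated cells, the other day 0 libraries being at 0, and both values rest on 1 cell. The proliferating share of stromal cells in day 21 replicate 4 was 5.22%, against 0.422% to 1.04% in the others. In proliferating cells of day 7, Cd163 was 4.16 CPM in replicate 3 and 0 in the others, Hp (haptoglobin) was 49.9 CPM in replicate 3 against 11.4 to 16.4 CPM, and Saa3 (serum amyloid A3) was 16.4 CPM in replicate 2 against 0 to 2.36 CPM.

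The response to time or peptide differed between proliferating and other gated cells for 19 named genes by the edgeR term for that difference. From day 3 to day 7 the responses differed, on the log2 scale, by -1.92 for C1qa, -1.72 for C1qb, -1.85 for C1qc, -5.02 for Cd163, -4.05 for Ccl8, -1.73 for Maf, -1.93 for Gas6 and -1.80 for Sepp1. They differed by -1.34 for Apoe, -1.16 for Fabp5, -0.97 for Trem2, -3.06 for Mmp9, -1.81 for Npl, -2.80 for Ctsk and -2.49 for Acp5, and in the other direction by 1.70 for Lsp1, 1.33 for Tppp3 and 1.10 for Tmsb10. With p7N3 the response of Lyz1 differed by 2.83. The share of collagen-rich cells among the proliferating ones also differed between day 3 and day 7, and its part in these values was not tested beyond the fits of leukocyte-rich cells, in which C1qa, C1qb, C1qc, Cd163, Ccl8, Maf, Gas6, Sepp1, Mmp9, Npl, Ctsk, Acp5, Lsp1, Tppp3 and Tmsb10 passed the threshold and Apoe, Fabp5 and Trem2 did not.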

How the results depend on the processing

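Direction and side of the threshold were kept, or a count stayed within 1.5 times, in 196 recomputed values of the comparisons, while 49 moved further and 14 reversed. The share at day 21 minus that at day 7 (-0.0538 points) turned positive when thinned to 2000 (0.153) or 3000 UMIs (0.513), with at least 4 cycle genes (0.0872), with at least 2 Csf1r UMIs (0.376) and in leukocyte-rich cells (0.824, or 0.691 thinned), and ranged from -0.224 to 0.0658 with each library left out. The proliferating share of gated cells minus that of stromal cells for p7N3 turned to 0.997 when thinned to 3000 UMIs and ranged from -2.21 to 0.960 with libraries left out, and the G2/M percent of day 7 minus day 3 from -0.0946 to 2.70.

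Cycle genes called at day 3 against day 0 numbered 15 of 21 tested, and 39 of 66 without a filter, 4 of 7 with at least 10 UMIs in every library, 42 of 64 in a single fit and 9 to 37 with libraries left out. At day 21 against day 7 they numbered 12, and 5 with at least 10 UMIs, 22 in a single fit, 6 in leukocyte-rich cells and 6 to 13 with libraries left out, and with p7N3 0, or 1 by DESeq2. Genes called in proliferating cells at day 7 against day 3 numbered 539, and 981 without a filter, 61 in leukocyte-rich cells and 241 to 720 with libraries left out. With p7N3 they numbered 1 (Lyz1), and 2 by DESeq2, 13 without a filter, 1 that was lower with at least 4 cycle genes (Ctsl, named after its value was seen, Lyz1 not being tested there), 0 with at least 10 UMIs or in a single fit and 0 to 1 with libraries left out. Differences in response numbered 89, and 140 by DESeq2, 493 without a filter, 45 in leukocyte-rich cells and 34 to 149 with libraries left out, and for p7N3 1, and 14 without a filter, 0 with at least 10 UMIs or at least 4 cycle genes, 4 in leukocyte-rich cells and 1 to 4 with libraries left out. Filters change how many genes are tested, and for the rest the cause was not tested.

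Libraries of equal replicate number correlated at -0.17 to 0.20, and those of unequal number at -0.36 to 0.31. Whether libraries of equal number were handled together was not tested. With the replicate block the calls in proliferating cells were 149 at day 7 against day 3 and 0 with p7N3, and those in all gated cells with p7N3 were 12 of 11891 genes in place of 0. Of the named genes 583 values stayed on the same side of the threshold, 91 lost a call, 3 gained one and 0 reversed direction. The 583 include values of genes that were not called in the main fit, such as Cdc20, Ube2c and Plin2 with p7N3. Cd163, Chil3, Ccl2, Cd9, S100a8, S100a9, Npl and Retnlg kept their call in every setting in which they could be tested. With at least 10 UMIs in every library Chil3, Cd163 and Retnlg could not be tested, having 0, 1 and 2 UMIs over the day 7 group. No cell remained when cells with 2 markers of another type were left out, so that setting gave no value. Sums of proliferating cells at day 0 and day 21 could not be fitted, having under 10 cells. Depth limits what the shares show, since thinning to 3000 UMIs, with the gate applied anew, moved the day 3 mean from 4.38% to 1.10%, that of day 7 from 1.70% to 0.420% and that of day 0, which rests on 1 cell, from 0.197% to 0.266%.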
